A study of Mus musculus with 9 samples.

Results

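The genes described here make up the CCR2, CXCR3 and CX3CR1 chemokine axes: the CCR2 ligands *Ccl2*, *Ccl7* and *Ccl12* with their receptor *Ccr2*, the CXCR3 ligands *Cxcl9* and *Cxcl10* with *Cxcr3*, the CX3CR1 ligand *Cx3cl1* with *Cx3cr1*, and *Ccl5*. They were taken from the expression table by gene name, and all 10 of 10 were found among its 34638 genes. RNA was sequenced from the whole lung of 9 wild-type C57BL/6 mice, 3 in each of 3 groups. PBS mice were challenged with phosphate-buffered saline. IL-33 mice received recombinant mouse IL-33 intratracheally, at 0.5 µg each time, once a day from day 0 to day 3. IL-33+LM8 mice received the same IL-33 challenges, each preceded by LM8, which the series describes as a MyD88 inhibitor, injected intraperitoneally at 10 mg/kg. The study's methods give female mice of 6 to 8 weeks and lungs taken 24 h after the last challenge for the PBS and IL-33 mice, whereas age, sex and sampling day of the IL-33+LM8 mice are not given in the sources used here. No mice given LM8 alone were analysed here, so LM8 was compared only on top of IL-33.

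Chemokines are small secreted proteins that draw leukocytes along a gradient through receptors on the cell surface. CCR2 is carried by classical monocytes and is known for releasing them from the bone marrow and bringing them into inflamed tissue, where they can become macrophages and dendritic cells, while CX3CR1 marks non-classical monocytes, which patrol the vessel wall, and many tissue macrophages. CXCR3 is carried by effector T cells and NK cells, and its ligands are classical products of interferon-stimulated cells. IL-33 is an epithelial alarmin whose receptor ST2 signals through the adaptor MyD88.

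IL-33 mice had more RNA of all 3 CCR2 ligands, of *Ccr2* and of both CXCR3 ligands than PBS mice, and less of *Cx3cl1*. With LM8 added, mean *Ccl2* (7.62 against 5.43 FPKM) and *Ccl7* (8.70 against 8.65 FPKM) did not differ from IL-33 mice by the test. Nor did *Ccl12* (6.04 against 11.1 FPKM), although its values were lower and those of *Ccl2* higher, without overlap. *Ccr2* was 1.73-fold lower, and *Cxcl9* rose 2.76-fold further, a call that was lost on leaving out any of 5 of the 6 mice compared. *Ccl5* was at a similar mean level in the 3 groups, but its spread in IL-33+LM8 mice was wider. Values are FPKM, fragments scaled by transcript length and library size, given as mean ± SD over n = 3 mice. Fold changes on the log2 scale come from counts, with edgeR's quasi-likelihood test. A gene was called, and is described as having risen or fallen, at a Benjamini-Hochberg adjusted p under 0.05 over all genes tested and a log2 fold change of at least 1 in size.

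Total counts were between 53877663 and 90607218 per mouse, and the 10 genes had counts from 14 (*Ccl2* in a PBS mouse) to 12117 (*Ccr2* in an IL-33 mouse). The lung epithelial genes *Sftpc*, which encodes surfactant protein C, and *Scgb1a1*, the club cell secretory protein, were among the markers read in every group, with mean levels of 11030 and 21500 FPKM in PBS mice. In bulk tissue, fewer cells of a type and less RNA per cell cannot be told apart, so each level below is a level of the whole lung.

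The 3 CCR2 ligand genes lay together on chromosome 11, on the plus strand, in the coordinates of the expression table. These positions differ from the GRCm38 annotation, although the submitters' notes name mm10, so they are given as the table's own. *Ccl2* (ENSMUSG00000035385) stood at 81926397 to 81928279, *Ccl7* (ENSMUSG00000035373) began 8258 bases after it, and *Ccl12* (ENSMUSG00000035352) began 54.3 kb after *Ccl7*. *Ccl5* (ENSMUSG00000035042) was on the minus strand of the same chromosome, at 83416604 to 83421344. *Cxcl9* (ENSMUSG00000029417) and *Cxcl10* (ENSMUSG00000034855) were neighbours on the minus strand of chromosome 5, 18.6 kb apart. *Ccr2* (ENSMUSG00000049103) and *Cx3cr1* (ENSMUSG00000052336) were on chromosome 9, *Cx3cl1* (ENSMUSG00000031778) on chromosome 8 and *Cxcr3* (ENSMUSG00000050232) on chromosome X. *Cxcl10* lay within *Art3*, a gene of the opposite strand, and *Cx3cr1* overlapped *Gm33858*. Whether the counting used strand is not given in the sources used here. *Art3* counts were 1834 to 2283 in PBS mice, 621 to 807 in IL-33 mice and 975 to 1484 in IL-33+LM8 mice, lowest in the IL-33 mice, whereas *Cxcl10* was lowest in the PBS mice. *Gm33858* counts were 9 to 31, 8 to 11 and 28 to 42 in the same groups, beside 382 to 1024 for *Cx3cr1* over all mice. Both *Gm33858* and *Cx3cr1* had their lowest mean FPKM in the IL-33 mice.

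Promoter sequences from RefSeq (GRCm38.p6) were at hand for 7 of the 10 genes, not for *Ccl2*, *Ccl7* and *Ccl5*. *Cxcl9* and *Cxcl10* are shown because they are neighbouring genes with a shared receptor, of which *Cxcl9* alone was called with LM8. The 250 bases before each start are printed 5′ to 3′ on the gene's own (minus) strand, at chr5:92348890-92349139 for *Cxcl10* and chr5:92328080-92328329 for *Cxcl9*, in RefSeq's coordinates and not the table's. Capitals mark matches to the motifs named below.
Cxcl10: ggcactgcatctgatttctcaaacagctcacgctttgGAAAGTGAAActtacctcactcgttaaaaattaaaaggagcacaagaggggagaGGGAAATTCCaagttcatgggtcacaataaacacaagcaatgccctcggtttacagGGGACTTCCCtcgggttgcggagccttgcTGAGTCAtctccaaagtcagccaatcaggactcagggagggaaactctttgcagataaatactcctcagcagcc
Cxcl9: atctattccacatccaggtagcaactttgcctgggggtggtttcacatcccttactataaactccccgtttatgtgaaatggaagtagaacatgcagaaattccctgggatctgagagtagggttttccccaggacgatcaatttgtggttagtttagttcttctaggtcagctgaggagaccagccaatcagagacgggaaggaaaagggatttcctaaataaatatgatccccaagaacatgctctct

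Both strands of windows of 300 bases (250 before and 50 after the start) were searched for 4 motifs: the interferon-stimulated response element (ISRE) as GAAANNGAAA, the interferon-γ activated site (GAS) as TTCNNNGAA, AP-1 as TGANTCA and the NF-κB (kappaB) consensus by name. Of the 32851 RefSeq promoter windows, 3.44% held the ISRE, 8.30% the GAS, 7.81% the AP-1 and 4.51% the κB motif. *Cxcl10* held an ISRE from 213 to 204 bases before its start, κB matches from 159 to 150 and from 103 to 94 bases before it, and an AP-1 match from 74 to 68 bases before it. *Cxcl9* had no match in the 250 bases before its start and an AP-1 match from 31 to 37 bases after it. The windows of the other 5 genes, *Ccl12*, *Ccr2*, *Cx3cl1*, *Cx3cr1* and *Cxcr3*, held none of the 4 motifs. A match is a description of letters, and no match says only that these letters were not in the window.

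In IL-33 against PBS, 6 of the 10 genes rose and 1 fell, at a median log2 fold change of 1.63 against -0.0053 over all 16831 genes tested. Among all those genes 10.8% were called higher and 6.24% lower. By adjusted p alone 9 of the 10 genes passed, where 54.6% of all genes did, and in 9 of 10 the values of the 6 mice did not overlap between the groups, as in 63.4% of all genes.

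*Ccl2* (monocyte chemoattractant protein-1) was at 0.176, 0.455 and 0.446 FPKM in the PBS mice, at 5.60, 5.74 and 4.95 in the IL-33 mice and at 6.86, 9.53 and 6.48 in the IL-33+LM8 mice. Each step was free of overlap, with PBS lowest and IL-33+LM8 highest. Mean levels were 0.359 ± 0.159, 5.43 ± 0.421 and 7.62 ± 1.66 FPKM (n = 3 each). *Ccl2* thus rose 15.1-fold in IL-33 over PBS (log2 fold change 3.87, SE 0.35, adjusted p = 8.6e-05, edgeR). The further difference in IL-33+LM8 over IL-33 was 0.49 on the log2 scale (SE 0.18, adjusted p = 0.088, edgeR), which did not pass the test.

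*Ccl7* (monocyte chemoattractant protein-3) is a further CCR2 ligand that also binds CCR1 and CCR3. Its levels were 0.438, 1.39 and 0.573 FPKM in PBS mice, 7.49, 7.55 and 10.9 in IL-33 mice and 4.73, 12.2 and 9.21 in IL-33+LM8 mice. All 6 mice given IL-33 were above every PBS mouse, while IL-33+LM8 spread on both sides of IL-33. *Ccl7* rose 10.8-fold in IL-33 (log2 fold change 3.43, SE 0.45, adjusted p = 0.00057, edgeR). Between IL-33+LM8 and IL-33 the log2 difference was 0.012 (SE 0.34, adjusted p = 0.99, edgeR), too imprecise to show that the groups were alike.

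*Ccl12* (monocyte chemoattractant protein-5), the rodent CCR2 ligand, was at 1.04, 1.33 and 1.06 FPKM in PBS mice, 8.37, 9.73 and 15.2 in IL-33 mice and 3.90, 7.98 and 6.24 in IL-33+LM8 mice. It rose 9.70-fold in IL-33 (log2 fold change 3.26, SE 0.29, adjusted p = 8.6e-05, edgeR). Every IL-33+LM8 mouse was below every IL-33 mouse, the opposite order to *Ccl2*, but the log2 difference of -0.87 (SE 0.33) had an adjusted p of 0.094 in edgeR. Relative to *Ccl2* in the same mouse, *Ccl12* stood at 2.09 ± 0.859 in IL-33 and 0.790 ± 0.201 in IL-33+LM8 mice (n = 3 each). That ratio was lower in every IL-33+LM8 mouse than in every IL-33 mouse, and its two-sided exact permutation p was 0.1, the smallest that 3 against 3 allows (0.17 adjusted over the 12 ratio tests). The *Ccl7* to *Ccl2* ratio overlapped between these groups, at 1.62 ± 0.506 and 1.13 ± 0.388 (exact permutation p = 0.4, adjusted 0.44). The summed level of the 3 ligands was 1.65 to 3.18 FPKM in PBS, 21.5 to 31.1 in IL-33 and 15.5 to 29.7 in IL-33+LM8 mice.

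*Ccr2*, the shared receptor, had 4.11, 4.64 and 3.49 FPKM in PBS mice, 26.2, 25.7 and 28.3 in IL-33 mice and 14.0, 16.9 and 15.4 in IL-33+LM8 mice. The 3 groups stood clearly apart, with IL-33+LM8 in between. *Ccr2* rose 6.55-fold in IL-33 (log2 fold change 2.71, SE 0.11, adjusted p = 2.7e-06, edgeR), and in the IL-33+LM8 mice it was still 3.79-fold above PBS (1.93, SE 0.12, adjusted p = 9.3e-05). The log2 fold change from IL-33 to IL-33+LM8 was -0.79 (SE 0.083, adjusted p = 0.00059, edgeR), below the size needed for a call, and the adjusted p was under 0.05 in 14 of 14 alternative fits. So the receptor was lower with LM8 while the summed level of its ligands overlapped with that of IL-33 mice. Of the 31-base stretches in *Ccr2* transcripts, 3.41% also occur in other genes, so a small share of its counts could be split with them.

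**Figure D1:**
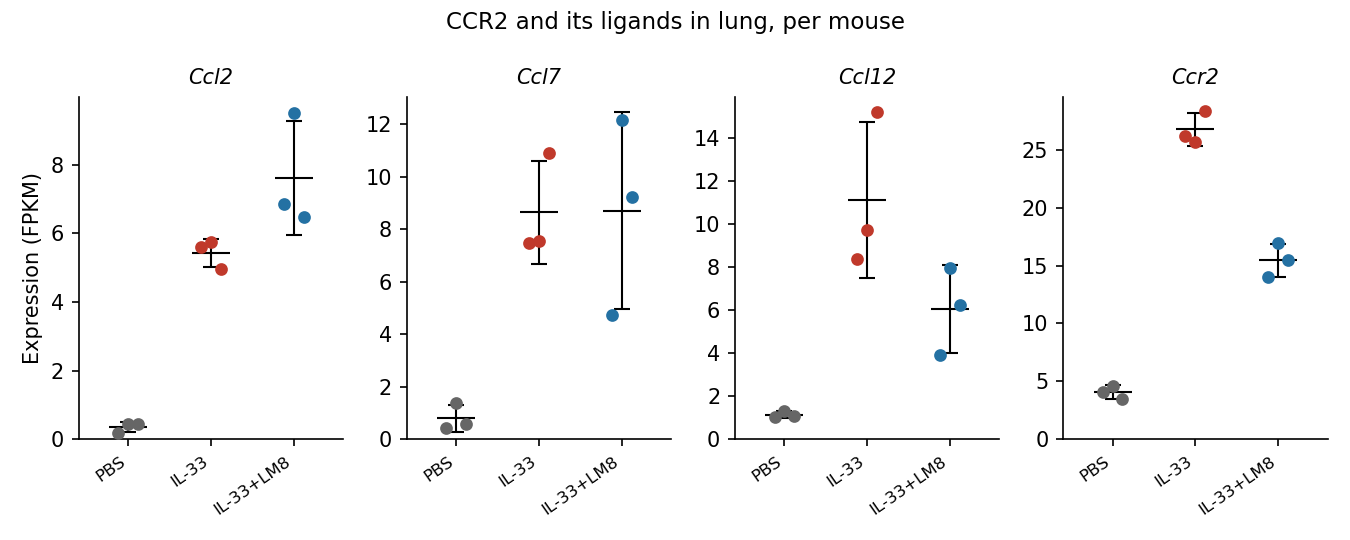
FPKM (y axis, linear, from 0) of *Ccl2*, *Ccl7*, *Ccl12* and *Ccr2* in PBS, IL-33 and IL-33+LM8 mice; points are mice, bars mean ± SD (n = 3). *Ccr2* falls into 3 separate levels with means of 4.08, 26.7 and 15.5 FPKM, whereas *Ccl2* was at 4.95 FPKM or more in every mouse given IL-33, with or without LM8.

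*Cxcl9* and *Cxcl10* encode CXCR3 ligands, known as monokine induced by interferon-γ and interferon-inducible protein 10. *Cxcl9* was at 0.560, 0.422 and 0.486 FPKM in PBS mice, 1.14, 1.12 and 1.50 in IL-33 mice and 5.54, 1.65 and 3.18 in IL-33+LM8 mice. The groups stood in that order without overlap, and the IL-33+LM8 mice were spread widely. *Cxcl9* rose 2.56-fold in IL-33 over PBS (log2 fold change 1.34, SE 0.22, adjusted p = 0.0017, edgeR; 0.59 and no call with limma on log2(FPKM + 1)) and 2.76-fold more in IL-33+LM8 (1.46, SE 0.40, adjusted p = 0.034). This last call was lost on leaving out any IL-33 mouse (log2 fold changes of 1.40, 1.38 and 1.62) or IL-33+LM8 mouse 3 (1.53) or mouse 1 (0.95), at adjusted p between 0.064 and 0.10. Among these the difference dropped below 1 only without IL-33+LM8 mouse 1, and the call held without IL-33+LM8 mouse 2 (log2 fold change 1.79, adjusted p = 0.0048). Over all 13 alternatives its adjusted p was between 0.00026 and 0.10, and under 0.05 in 4.

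*Cxcl10* was at 1.02, 0.652 and 0.970 FPKM in PBS mice, 3.25, 3.13 and 3.78 in IL-33 mice and 5.74, 3.85 and 5.82 in IL-33+LM8 mice. The groups again did not overlap, although IL-33+LM8 mouse 2 was close to the IL-33 mice. *Cxcl10* rose 3.85-fold in IL-33 (log2 fold change 1.92, SE 0.22, adjusted p = 0.00025, edgeR). From IL-33 to IL-33+LM8 the log2 fold change was 0.60 (SE 0.18, adjusted p = 0.046, edgeR), under the size for a call, and the adjusted p was under 0.05 in 3 of 13 alternative fits (0.0076 to 0.14). Against PBS, *Cxcl10* in IL-33+LM8 mice was 5.83-fold and *Cxcl9* 7.06-fold higher, both called.

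*Cxcl9* per *Cxcl10* was 0.566 ± 0.0750 in PBS, 0.367 ± 0.0244 in IL-33 and 0.647 ± 0.283 in IL-33+LM8 mice (n = 3 each). IL-33 mice were lower than the mice of either other group, without overlap (two-sided exact permutation p = 0.1 for both, the smallest possible, 0.17 adjusted), and IL-33+LM8 overlapped with PBS (exact permutation p = 0.9). The summed level of the pair was 1.07 to 1.58, 4.25 to 5.28 and 5.50 to 11.3 FPKM in the 3 groups.

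*Cxcr3*, their receptor, was at 1.90, 1.98 and 1.47 FPKM in PBS mice, 3.37, 2.80 and 2.79 in IL-33 mice and 2.25, 2.45 and 2.42 in IL-33+LM8 mice. The groups did not overlap, with IL-33+LM8 in between, so ligands and receptor were not ordered alike. The log2 fold change in IL-33 over PBS was 0.74 (SE 0.19, adjusted p = 0.013, edgeR), short of a call. It was -0.33 (SE 0.16, adjusted p = 0.17, edgeR) in IL-33+LM8 against IL-33, so no change with LM8 was shown.

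*Ccl5* (RANTES), a T cell and NK cell product that acts through CCR1 among other receptors, was at 10.8, 12.3 and 10.3 FPKM in PBS mice, 10.9, 11.2 and 13.4 in IL-33 mice and 15.9, 6.29 and 10.4 in IL-33+LM8 mice. All groups overlapped. The mean differed little between groups (11.1 ± 1.07, 11.9 ± 1.36 and 10.9 ± 4.80 FPKM), and no comparison came near the threshold: log2 fold change 0.089 (SE 0.13, adjusted p = 0.59) in IL-33 over PBS and -0.13 (SE 0.30, adjusted p = 0.80) in IL-33+LM8 against IL-33. *Ccl5* was the single gene of the 10 with an adjusted p above 0.05 in IL-33 over PBS.

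Within the IL-33+LM8 group, mouse 1 was highest and mouse 2 lowest for *Cxcl9*, *Ccl5* and *Cx3cr1*, while for *Ccl2*, *Ccl7*, *Ccl12* and *Ccr2* mouse 2 was highest. The same order of mouse 1, 3 and 2 was seen in the summed level of 15 interferon-γ response genes (291, 231 and 175 FPKM), of 6 NK cell markers (31.3, 25.2 and 19.3 FPKM) and of 6 T cell markers (18.3, 15.9 and 12.4 FPKM). It was also seen in the sums of the non-classical monocyte (344, 296 and 263 FPKM), neutrophil (823, 715 and 699 FPKM) and endothelial markers (701, 699 and 688 FPKM), so it was not particular to lymphocyte or interferon genes. These values moved together within 3 mice, and the part of one in the other was not tested.

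**Figure D2:**
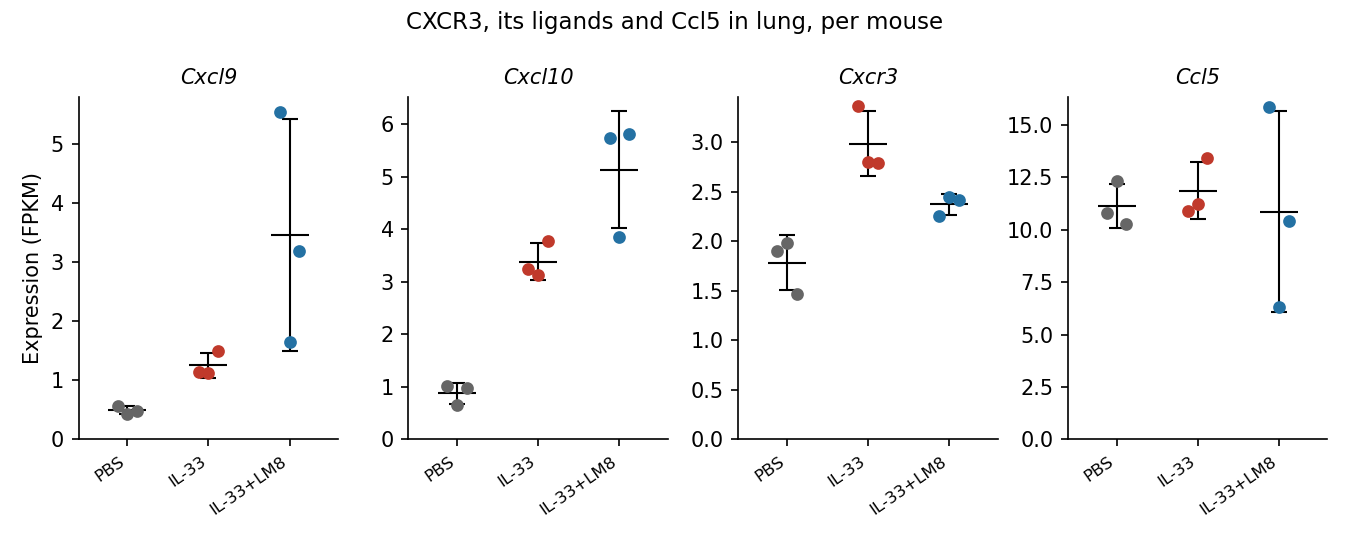
FPKM (y axis, linear, from 0) of *Cxcl9*, *Cxcl10*, *Cxcr3* and *Ccl5* in PBS, IL-33 and IL-33+LM8 mice; points are mice, bars mean ± SD (n = 3). *Cxcl9* in the IL-33+LM8 mice ranges from 1.65 to 5.54 FPKM, all above the IL-33 mice, and *Ccl5* ranges from 6.29 to 15.9 FPKM in the same mice and overlaps with both other groups.

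*Cx3cl1* (fractalkine) encodes a membrane-bound chemokine that is shed by the proteases ADAM10 and ADAM17. It had 14.8, 15.2 and 13 FPKM in PBS mice, 5.80, 7.70 and 6.55 in IL-33 mice and 9.93, 10.3 and 9.32 in IL-33+LM8 mice. It was the one gene of the 10 that fell with IL-33, by 1.10 on the log2 scale (SE 0.12, adjusted p = 0.00022, edgeR), and the 3 groups did not overlap. Without IL-33 mouse 1 the log2 fold change was -0.99, and the call was lost on size, with an adjusted p of 0.00069. In IL-33+LM8 mice *Cx3cl1* was above IL-33 by 0.56 (SE 0.11, adjusted p = 0.0098, edgeR) and below PBS (-0.52, SE 0.086, adjusted p = 0.0044), each short of a call.

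*Cx3cr1*, its receptor, was at 2.03, 2.59 and 2.46 FPKM in PBS mice, 1.53, 1.35 and 1.65 in IL-33 mice and 2.81, 1.70 and 2.41 in IL-33+LM8 mice. IL-33 mice were lowest, with no overlap with either other group. The log2 fold change was -0.64 (SE 0.14, adjusted p = 0.0064, edgeR) in IL-33 over PBS, short of a call, and 0.61 (SE 0.19, adjusted p = 0.056) in IL-33+LM8 over IL-33. IL-33+LM8 and PBS mice overlapped (-0.017, SE 0.19, adjusted p = 0.96).

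Set against *Ccr2* in the same mouse, *Cx3cr1* was at 0.585 ± 0.106 in PBS, 0.0564 ± 0.00332 in IL-33 and 0.152 ± 0.0502 in IL-33+LM8 mice (n = 3 each), a ratio of FPKM values, which are per length. The 3 groups were apart. The ratio was 10.3-fold lower in IL-33 than in PBS mice and 2.60-fold higher in IL-33+LM8 than in IL-33 mice (two-sided exact permutation p = 0.1 each, the smallest possible, 0.17 adjusted).

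**Figure D3:**
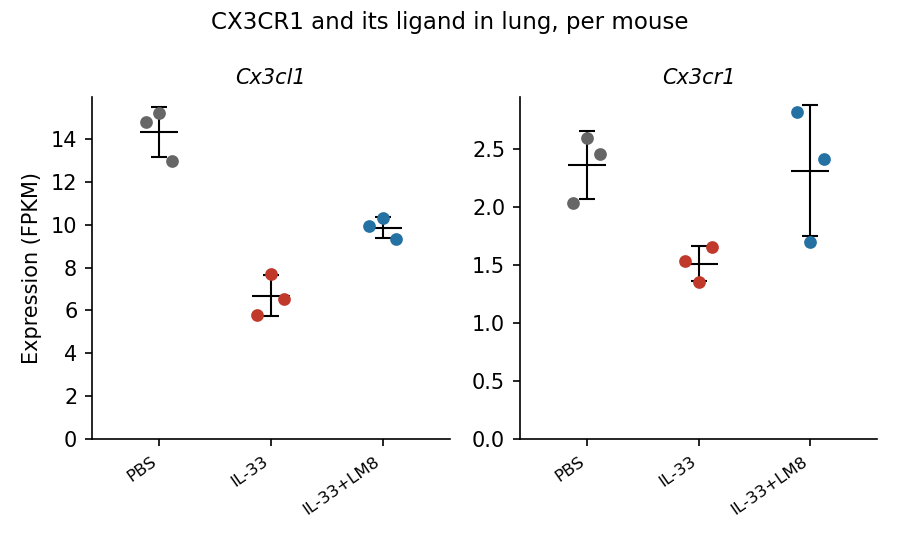
FPKM (y axis, linear, from 0) of *Cx3cl1* and *Cx3cr1* in PBS, IL-33 and IL-33+LM8 mice; points are mice, bars mean ± SD (n = 3). IL-33 mice are lowest for both genes, with means of 6.68 and 1.51 FPKM, and *Cx3cl1* in IL-33+LM8 mice (9.85 FPKM) stands between the other groups.

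In IL-33+LM8 against IL-33, 1 of the 10 genes was called higher (*Cxcl9*) and 0 lower, where 1.46% of all 16831 genes were called higher and 3.93% lower. By adjusted p alone it was 4 of 10 (*Cxcl9*, *Cxcl10* and *Cx3cl1* higher, *Ccr2* lower) against 26.5% of all genes, and 7 of 10 at an unadjusted p under 0.05. Values of 8 of the 10 did not overlap between the groups, as in 43.2% of all genes. The median log2 fold change of the 10 genes was 0.25, against -0.0062 over all genes.

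In IL-33+LM8 against PBS, 6 of 10 genes were called higher, the same 3 CCR2 ligands, *Ccr2*, *Cxcl9* and *Cxcl10* as in IL-33 against PBS, and 0 lower. Of all 16829 genes tested 5.87% were called higher and 1.46% lower. By adjusted p alone 7 of 10 passed (29.7% of all genes), and 8 of 10 did not overlap (47.3% of all genes). *Ccl2* was 21.2-fold, *Ccl7* 10.9-fold and *Ccl12* 5.28-fold higher, against 15.1-fold, 10.8-fold and 9.70-fold in IL-33 mice. The comparisons share mice (PBS or IL-33 as a reference), so these values stand side by side and are not independent of each other.

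**Figure D4:**
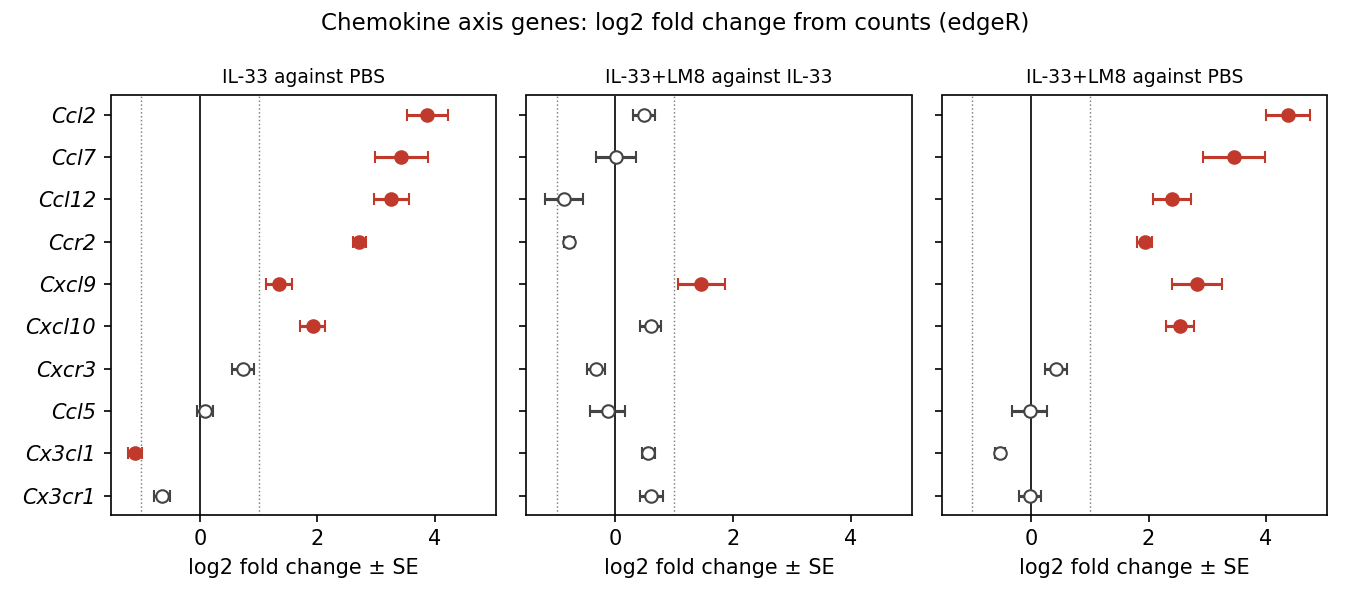
Log2 fold change ± SE (x axis) of the 10 genes in each comparison, from counts by edgeR; filled red points are called and dotted lines mark a log2 fold change of 1 in size. In IL-33 against PBS 7 of the 10 are called, and *Cxcl9* alone, at 1.46, is called between IL-33+LM8 and IL-33. There are 6 called in IL-33+LM8 against PBS.

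Ordered by mean FPKM, PBS lungs had most *Cx3cl1* (14.3) and *Ccl5* (11.1), then *Ccr2* (4.08), *Cx3cr1* (2.36), *Cxcr3* (1.78) and *Ccl12* (1.14), each step without overlap between mice, and *Cxcl10*, *Ccl7*, *Cxcl9* and *Ccl2* at the bottom, where neighbours overlapped. In IL-33 lungs *Ccr2* (26.7) led, apart from *Ccl5*, *Ccl12* (11.1), *Ccl7* and *Cx3cl1*, whose neighbours overlapped, and *Cx3cr1* and *Cxcl9* were lowest and overlapped. In IL-33+LM8 lungs *Ccr2* (15.5) was again first, but the values of every neighbouring pair in the order overlapped.

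Other ligands and receptors of the same axes were taken as a list. Of *Ccl3* and *Ccl4*, which encode macrophage inflammatory proteins, and *Ccl8*, another monocyte chemoattractant protein, 3 of 3 rose in IL-33. The median log2 fold change was 3.02, against -0.0053 over all genes. *Ccl8* went from a mean of 0.845 FPKM in PBS to 91.9 in IL-33 and 33.0 in IL-33+LM8 mice, where its mean was above that of each of the 10 axis genes. With LM8 2 of 3 fell relative to IL-33, *Ccl3* by 1.82 and *Ccl8* by 1.48 on the log2 scale, and *Ccl4* had -0.91 (adjusted p = 0.034, edgeR). The median was -1.48, against 0.49 for *Ccl2*, 0.012 for *Ccl7* and -0.87 for *Ccl12* in that comparison. *Cxcl11*, another CXCR3 ligand, had counts of 0 to 24 and was not tested.

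The receptor *Ccr1*, which binds CCL5 and CCL7 among others, rose in IL-33 by a log2 fold change of 3.03. Its means were 2.98, 24.3 and 15.4 FPKM in the 3 groups. With LM8 it had -0.66 (adjusted p = 0.00042, edgeR), short of a call, beside -0.79 for *Ccr2*. Both receptors were thus lower in IL-33+LM8 than in IL-33 mice by adjusted p.

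*Ackr1*, the erythroid and venular scavenger receptor for inflammatory chemokines, rose in IL-33 (log2 fold change 2.54, adjusted p = 0.021, edgeR), from 0.390 to 2.28 FPKM, and *Ackr2* was at -0.19 (adjusted p = 0.10). With LM8 *Ackr1* had 0.36 (adjusted p = 0.65) and *Ackr2* 0.74 (adjusted p = 0.00055, edgeR) relative to IL-33, and *Ackr2* was also above PBS (0.56, adjusted p = 0.0019), short of a call in both. Of the proteases *Adam10* and *Adam17*, which release CX3CL1, and *Dpp4*, which trims CXCL9 and CXCL10, 0 of 3 were called. All 3 passed by adjusted p, with log2 fold changes of 0.67, 0.43 and -0.75, and at an unadjusted p under 0.05 the number was also 3. With LM8 they had -0.47, -0.35 and 0.27, again 0 of 3 called.

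Of the 15 interferon-γ response genes, 14 were tested, because *Ifng* itself had counts of 4 to 34. In IL-33 against PBS 3 rose (*Socs1*, a feedback inhibitor of cytokine signalling, *Ciita*, the switch for MHC class II genes, and the immunoproteasome subunit *Psmb8*), and *Ido1*, a tryptophan-degrading enzyme, fell by 1.36. The other 10 were not called, and the median was 0.27. The guanylate-binding protein *Gbp2* (-0.27) and the transcription factor *Irf1* (-0.35) stood on the other side of 0 from *Cxcl9* (1.34) and *Cxcl10* (1.92). With LM8 *Ido1* was called higher than in IL-33 mice (1.10), 13 were not, and the median was 0.035, beside 1.46 for *Cxcl9*. By adjusted p 4 of 14 passed, and here *Irf1* (0.65, adjusted p = 0.0052, edgeR) and *Gbp2* (0.72, adjusted p = 0.046) were on the same side of 0 as *Cxcl9*. The summed level of the list was 164 to 177 FPKM in PBS, 191 to 215 in IL-33 and 175 to 291 in IL-33+LM8 mice. Its part in the *Cxcl9* result was not tested.

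Markers of the cells that carry these receptors moved unevenly. Of 6 classical monocyte markers 3 were called higher in IL-33 (among them *Plac8* and *Vcan*) and 0 lower, and the median was 1.01. The monocyte-macrophage transglutaminase *F13a1* went the other way, short of a call (-0.73, adjusted p = 0.0014, edgeR), without overlap between the groups. The summed level was 27.8 to 32.0 FPKM in PBS, 74.3 to 79.3 in IL-33 and 80.7 to 82.9 in IL-33+LM8 mice. With LM8 *F13a1* rose by 2.39, the other 5 were not called, and the median was 0.13. Mean *F13a1* was 2.38 FPKM in PBS, 1.43 in IL-33 and 7.51 in IL-33+LM8 mice. So *Ccr2* was lower in the IL-33+LM8 mice in which this summed level was no lower than in IL-33 mice.

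Of the interstitial macrophage markers 7 of 8 rose in IL-33 (median 2.21), among them the complement genes *C1qa*, *C1qb* and *C1qc*. With LM8 4 of 8 fell (among them the 3 complement genes, by 1.25, 1.31 and 1.24), with a median of -0.85. Others went the opposite way, short of a call: the scavenger receptor *Cd163* had 0.62 (adjusted p = 0.0034, edgeR) and the hyaluronan receptor *Lyve1* 0.92 (adjusted p = 0.00014), and mean *Folr2* was 5.26 FPKM in IL-33 and 5.56 in IL-33+LM8 mice. Their summed level was 187 to 198, 516 to 552 and 337 to 359 FPKM in the 3 groups. None of these markers was at 0, and their part in the *Ccr2* result was not tested.

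Markers of non-classical monocytes, which carry CX3CR1, had a median of -0.72 in IL-33, with *Spn* higher, *Cd300e* lower and 4 of 6 not called. With LM8 the median was 0.79, and *Treml4* (1.51) and *Cd300e* (2.53) rose. The summed level of 322 to 352, 197 to 208 and 263 to 344 FPKM had the order of *Cx3cr1*, but was carried mostly by *Ace* (mean 311 FPKM in PBS mice), which endothelium expresses too. Markers of endothelium, a cell type that makes CX3CL1, summed to 740 to 812, 442 to 480 and 688 to 701 FPKM. In IL-33 3 of 6 fell, among them *Cdh5* (VE-cadherin, -1.08), and with LM8 0 of 6 were called, at a median of 0.61, though 6 of 6 passed by adjusted p in edgeR and at an unadjusted p under 0.05. The epithelial sum was 31946 to 34740, 13794 to 14986 and 26375 to 28630 FPKM, and 2 of 7 fell in IL-33. These were *Scgb1a1* (-1.29) and *Sftpc* (-1.15), which carried most of the sum (means of 21500 and 11030 FPKM in PBS mice). Of the 5 not called, *Ager* had -0.93, *Cdh1* -0.13, *Krt8* 0.081, *Krt18* 0.23 and *Epcam* 0.27. The part of these lists in the *Cx3cl1* and *Cx3cr1* results was not tested.

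For the cells that carry CXCR3, 0 of 6 T cell markers were called in IL-33 against PBS (3 at an unadjusted p under 0.05, edgeR), with a median of 0.36 and summed levels of 12 to 14.2, 15.3 to 17.2 and 12.4 to 18.3 FPKM in the 3 groups. NK cell markers had 3 of 6 lower (*Ncr1*, *Klrb1c* and the granzyme *Gzma*) and a median of -0.99. Their sums were 30.2 to 47.2, 16.6 to 17.7 and 19.3 to 31.3 FPKM. With LM8 0 of 6 T cell markers (2 at an unadjusted p under 0.05) and 1 of 6 NK markers (*Eomes*, lower, -1.11) were called. The medians were -0.17 for the T cell and 0.49 for the NK markers. Apart from *Eomes*, the NK markers were above 0, short of a call. These were *Gzma* (0.64, adjusted p = 0.024, edgeR), *Prf1* (0.63), *Klrb1c* (0.53), *Ncr1* (0.46) and *Klre1* (0.31), of which *Gzma* alone passed by adjusted p. *Cxcr3* was higher in IL-33 mice, in which the NK sum was lower and the T cell sum higher without overlap. *Cd3g* (0.99), *Cd4* (0.64) and *Cd3e* (0.39) passed the adjusted p there. *Cd3d* (0.33), *Cd8a* (-0.094) and *Cd8b1* (-0.38) did not. The part of these cells in the *Cxcr3* result was not tested.

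**Figure D5:**
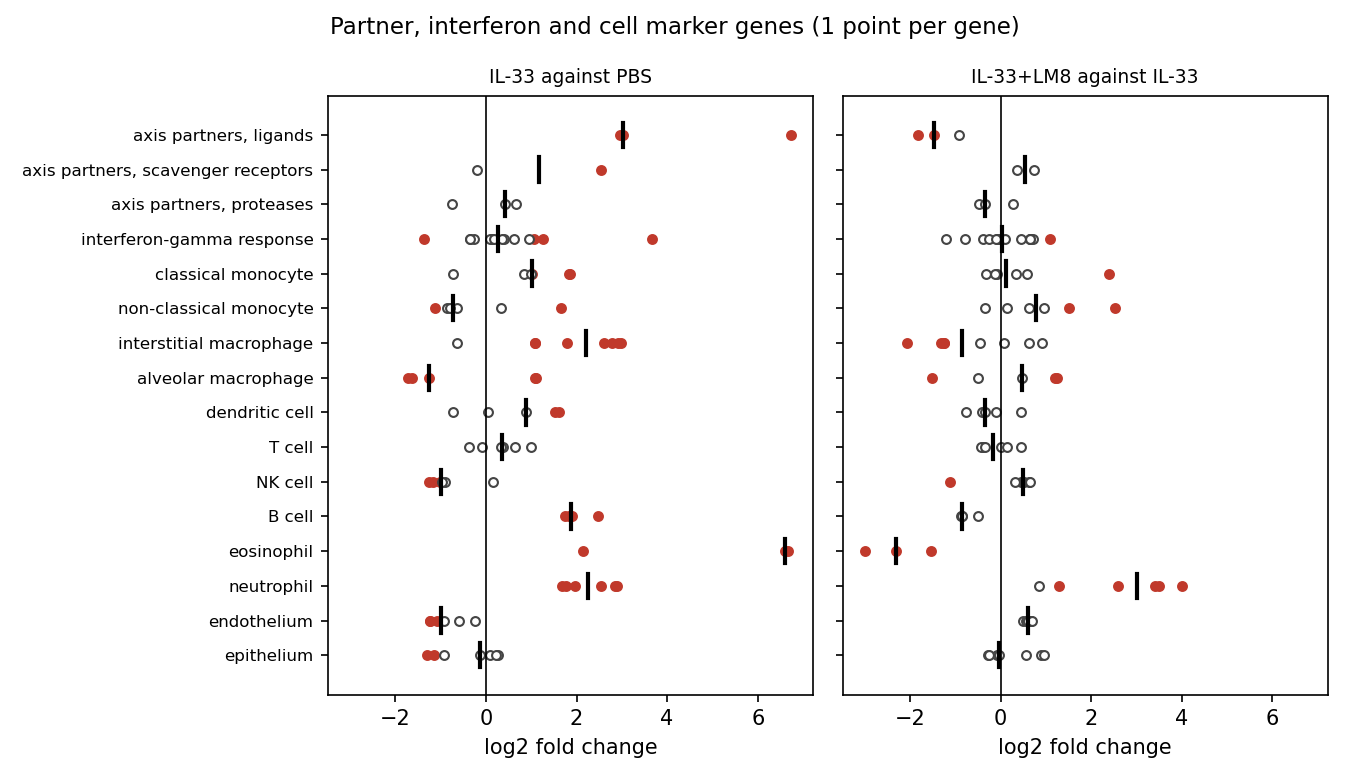
Log2 fold change (x axis) of single genes (points, filled red where called) of the partner, interferon response and cell marker lists, with each list's median as a bar, in IL-33 against PBS (left) and IL-33+LM8 against IL-33 (right). Interstitial macrophage markers have medians of 2.21 and -0.85, and neutrophil markers lie to the right of 0 in both panels, with medians of 2.25 and 3.00.

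Other leukocyte lists changed as well. Neutrophil markers, such as *S100a9* and *S100a8*, summed to 22.4 to 27.9, 86.0 to 108 and 699 to 823 FPKM, with 6 of 6 called higher in IL-33 and 5 of 6 higher again with LM8. Eosinophil markers, such as *Prg2* and *Ccr3*, a receptor for CCL7 and CCL5, summed to 0.399 to 0.957, 26.3 to 29.7 and 5.25 to 5.55 FPKM. Of the 3 tested, 3 rose in IL-33 and 3 fell with LM8, and *Epx*, the eosinophil peroxidase, had 0 counts in every PBS mouse. B cell markers rose in 4 of 4 in IL-33. With LM8 0 of 4 were called, but 4 of 4 were lower than in IL-33 mice by adjusted p (edgeR), at a median of -0.86. At an unadjusted p under 0.05 the number was also 4. Of 5 alveolar macrophage markers 2 were called higher and 3 lower in IL-33, and of 5 dendritic cell markers 2 were called higher and 0 lower. The part of these cells in the levels of the 10 genes was not tested.

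The genes whose levels were most like each of the 10 over the 9 mice were found by Pearson's r of log2(FPKM + 1), which reflects the 3 groups as much as the single mice and carries no test. For *Ccr2* they were *Irf4* (0.999), *Pcsk1* (0.998) and *Il5* (0.997). For *Ccl2* they were *Pigr* (0.996), *Jaml* and *Chil1*, for *Cxcl10* *Sema7a* (0.990), *Stat3* and *Mxd1*, and for *Cx3cl1* *Apbb1* (0.995), *Smim1* and *Nupr1*. *Ccl7* was nearest to *Tspan14* (0.996), *Gm21762* and *Nmt1*, and *Umps* and *Haus4* were among the nearest to *Ccl12*. *Cxcl9* was nearest to *Bach1* (0.982), *Myh11* and *Tgtp1*, *Cxcr3* to *Trex1* (0.980), *Oip5* and *Ercc3*, and *Cx3cr1* to *Ak9* (0.968), *Tgtp2* and *Frmpd2*. *Ccl5* had the weakest likeness, with *Gm17971* first at 0.926, then *Slc12a7* and *Tmem82*.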

How the data were processed

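Whole-lung RNA of 9 mice, 3 per group, was sequenced as paired reads of 150 bases. The authors deposited 1 table of raw counts and FPKM values, and the submitters' processing notes name HISAT2 2.0, StringTie 1.3.0, Bowtie 0.12.2 and mm10. The role of each tool, the annotation and the use of strand are not given in the sources used here. Groups were taken from the sample labels. Mice are numbered in the labels, and nothing there marks litters or batches, so p-values measure the spread between these mice.

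Deposited counts were tested with edgeR 4.0.16 (R 4.3.3, TMM, quasi-likelihood), with each comparison fitted to the 6 mice it concerns. Genes entered when FPKM averaged 0.5 or more across the 9 mice and the 6 held a count above 0. The SE is the size of the log2 fold change over the square root of F. Adjustment was by Benjamini-Hochberg over all genes tested. Ratios of FPKM were compared by two-sided exact permutation tests. DESeq2 1.42.0 and limma 3.58.1 were alternatives, and the fit was tested on simulated data. Total counts were 61767006 to 73869252 in PBS, 53877663 to 66029783 in IL-33 and 59753648 to 90607218 in IL-33+LM8 mice. No 2 libraries of a group agreed within sampling noise. Reads carry no molecular identifiers.

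The 10 genes and the 17 lists were chosen with earlier results of these data known. All 10 genes, any gene of the lists and, per gene, the 3 most alike genes of the 5 with the highest r could be named, apart from a few genes not reported here.

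Same-numbered mice of PBS and IL-33+LM8 deviated together from their group means (correlations of 0.31 to 0.67 for the 3 pairs), which is a hint from the data and not from the labels. The replicate block left 6 of 10 genes called in that comparison. The numbers did not pair the mice of the other comparisons.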

Additional observations from a re-analysis of the deposited data

How the results depend on the processing

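Of the log2 fold changes of the 10 genes under all alternatives, 379 stayed on their side of 0 and of the threshold, 12 were no longer called and 14 changed sign. The calls of IL-33 against PBS (7 genes) numbered 4 when a mean of 5 FPKM was required, leaving 5 of the genes to test, and those of IL-33+LM8 against PBS (6) numbered 3. With limma on log2(FPKM + 1) IL-33 against PBS had 5, *Cxcl9* (0.59) and *Cx3cl1* (-0.9988) being lost. Leaving out 1 mouse gave 6 to 7, and 6 to 6. The single call of IL-33+LM8 against IL-33 became 0 with all genes above 0, with the filter at 5 FPKM, with limma on log2(FPKM + 1) and on log2(FPKM + 0.1) and with the replicate block, became 4 with no minimum fold change, and ranged from 0 to 1 on leaving out 1 mouse. Over these fits, 3 to 8 genes had an unadjusted p under 0.05. DESeq2, median-of-ratios scaling and a fit of all 9 mice also gave 1. *Cxcl9* there was 1.3 with the block (adjusted p = 0.057, edgeR). The numbers pair no mice in that comparison (correlations of -0.40 to 0.22), and the block changed no other call. Reversals concerned values near 0: *Ccl7* in IL-33+LM8 against IL-33 was -0.055 and -0.070 with limma (pseudocounts 1 and 0.1), -0.073 with the block and -0.31 to 0.31 on leaving out 1 mouse. *Ccl5* was -0.50 to 0.14 in that comparison and -0.39 to 0.25 against PBS, *Cx3cr1* was -0.18 to 0.16 against PBS, and the log2 *Cxcl9* to *Cxcl10* ratio against PBS was -0.22 to 0.37. The cause was not tested. The number of mice, 3 per group, and, for *Ccl2* in PBS mice, counts of 14 to 40 limit the precision.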
